A study of Mus musculus with 36 samples.

Results

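Brain RNA of APP/PS1 mice at 9 months of age was compared with brain RNA of APP/PS1 mice at 6 months, gene by gene, in the mRNA table of the study. APP/PS1 mice carry the transgenes APP695swe and PS1-dE9 on a C57BL/6 strain and model the amyloid deposition of Alzheimer's disease; in this widely used line both transgenes are driven by promoter elements of the mouse prion gene. The comparison rests on 6 of the 36 samples of the series, 3 long RNA libraries at each age. The other 6 of the 12 long RNA libraries, from wild-type C57BL/6 mice at the same 2 ages, served as the background of ageing without the transgenes. The remaining samples, libraries of circular and of small RNA, are not used here. The labels name no treatment. The sources used here give no sex, no pooling, no hour of collection and no link from a library to an animal. The p-values below therefore rest on the spread between libraries, which may be technical.

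Between these ages amyloid plaques spread through the forebrain of APP/PS1 mice. Microglia, the phagocytes of the brain, gather around plaques and switch on a programme of lysosomal, lipid-handling and immune genes that depends on the receptor Trem2, and is called the disease-associated state. Astrocytes nearby make more of the filament protein Gfap. In bulk tissue, more cells of a type and more RNA per cell cannot be told apart.

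The deposited values were FPKM, which are reads scaled to transcript length and library size, summed here per gene. Of 22154 genes, 13593 averaged at least 0.5 FPKM across all 12 and were tested. FPKM sums per APP/PS1 library lay between 295386 and 301778, and 16757 to 17062 genes were above 0. Read depth itself is not in the table. The steps between the lowest values put the 3 libraries at 6 months at depths of 1, 0.84 and 0.67 relative to the first, and the 3 at 9 months at 0.80, 0.90 and 0.88. App, to which reads of the transgene can also map, gave 969.9, 971 and 1007 FPKM at 6 months and 1029, 973 and 1004 at 9 months, against 433 to 453 in wild type. Prnp, the prion gene whose promoter drives the transgenes, gave 718, 727 and 739 FPKM and then 759.6, 744 and 732, against 249 to 269 in wild type. Both genes overlapped between the ages, and all 6 libraries matched their genotype label.

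At a Benjamini-Hochberg adjusted p under 0.05 in limma, 0 of the 13593 genes were called between 6 and 9 months (0% of those tested). The smallest adjusted p was 0.0964, for Pvalb and Cthrc1, and 128 genes had an adjusted p under 0.15. An unadjusted p under 0.05 was reached by 1784 genes (13.1%), of which 1148 (8.45%) lay higher and 636 (4.68%) lower at 9 months. Without overlap between the ages, 1473 genes (10.8%) lay higher and 915 (6.73%) lower. The differences were small: 97.9% of genes lay within 0.5 on the log2 scale, and the median over all genes was 0.02. In wild type the same age step gave 6 calls (0.0441%), 3 in each direction, and 1394 genes at an unadjusted p under 0.05. The call of 0 depended on the settings, with 3 genes called at a pseudocount of 1 and 6 called when each gene was read from its most abundant transcript, and 0 to 5 with 1 library left out. The counts of list members below are therefore at the unadjusted p, and are read against 8.45% higher and 4.68% lower over all genes. All log2 differences are 9 minus 6 months on the log2(FPKM + 0.25) scale, which understates those of low genes.

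**Figure D1:**
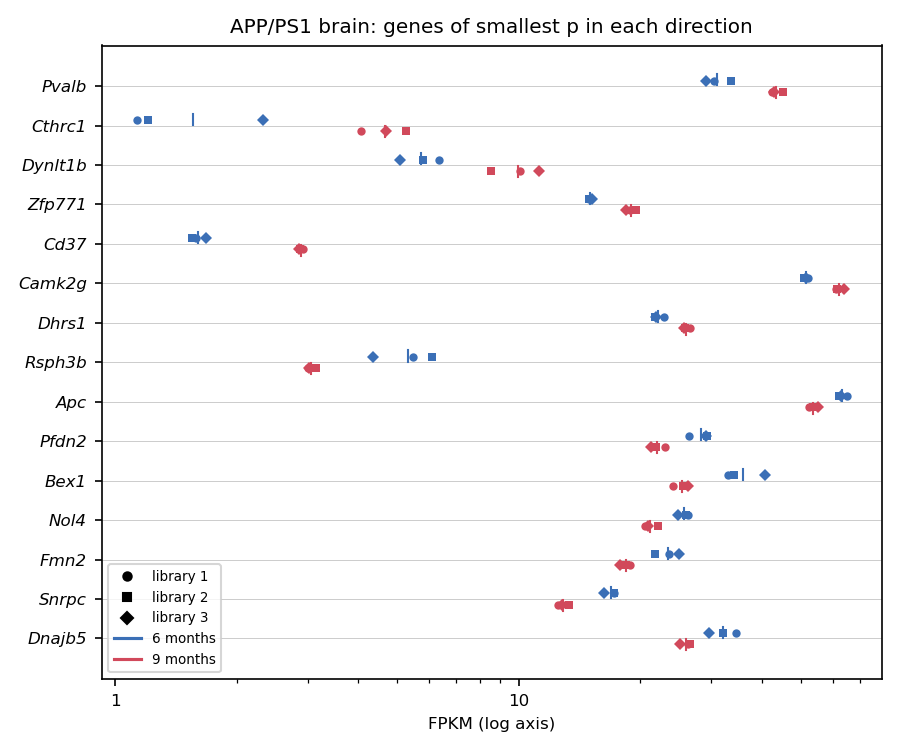
FPKM (log axis) in the 6 APP/PS1 libraries of 15 genes among those of smallest p in either direction with a mean of at least 1 FPKM; each symbol is a library, the short bars are group means, blue 6 months and red 9 months. The ages do not overlap for any of the 15 genes, and none passed an adjusted p under 0.05.

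Among genes that lay higher at 9 months, the smallest p belonged to Pvalb, the calcium buffer of fast-spiking GABAergic interneurons. It gave 30.4, 33.6 and 29.1 FPKM at 6 months and 42.4, 45.1 and 42.9 at 9 months. Every 9-month library was above every 6-month one, with a log2 difference of 0.48 (SE 0.06, adjusted p = 0.0964 in limma). Wild type differed in the same direction, by 0.23, with 38.4, 35.3 and 39.1 FPKM and then 44.3, 46.3 and 41.8. The 9-month APP/PS1 libraries thus lay within the wild-type range of that age, and the 6-month ones lay below wild type. The difference between the 2 age steps of Pvalb was 0.25 with an adjusted p of 0.332 in limma. Cthrc1, a secreted collagen triple helix repeat protein, gave 1.13, 1.21 and 2.33 FPKM and then 4.08, 5.26 and 4.68, a log2 difference of 1.5 (SE 0.20, adjusted p = 0.0964 in limma). In wild type Cthrc1 lay lower at 9 months, at 2.50, 2.46 and 2.85 FPKM against 3.56, 4.06 and 4.53. Wild-type libraries at 9 months therefore lay between the APP/PS1 libraries of the 2 ages. The difference between the 2 age steps of Cthrc1 was 2.09 with an adjusted p of 0.112 in limma, which did not pass.

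Cd37, a tetraspanin of immune cells, gave 1.59, 1.55 and 1.68 FPKM at 6 months and 2.92, 2.87 and 2.86 at 9 months, a log2 difference of 0.76. The 3 libraries of each age were close together and the ages were well apart, while wild-type libraries lay between 1.47 and 2.22 FPKM at both ages. Camk2g, a calcium and calmodulin-dependent kinase subunit, gave 52.2, 51.0 and 51.5 FPKM and then 61.0, 61.6 and 64.0. The zinc finger gene Zfp771 and the dehydrogenase gene Dhrs1 also lay higher in all 3 libraries, by 0.33 and 0.23 on the log2 scale. Dynlt1b, a dynein light chain gene, lay higher by 0.77, but it has near-identical copies between which reads could be split. The sum over Dynlt1a, Dynlt1b, Dynlt1c and Dynlt1f gave 11.5, 9.69 and 9.28 FPKM at 6 months and 14.5, 13.8 and 18.5 at 9 months, so the ages stayed apart in the sum.

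Among genes that lay lower, Apc, the scaffold of the beta-catenin destruction complex, gave 64.9, 62.2 and 62.9 FPKM at 6 months and 52.3, 53.6 and 55.0 at 9 months. The log2 difference was -0.24 (SE 0.04, adjusted p = 0.116 in limma), and in wild type it was 0.00. Pfdn2, a subunit of the prefoldin chaperone, gave 26.4, 29.2 and 29.1 FPKM and then 23, 21.9 and 21.3. Bex1, a small neuronal signalling adaptor, gave 33.1, 34.2 and 40.9 FPKM and then 24.1, 25.6 and 26.3, which is the level of wild type at 6 months (23.5 to 25.2). Snrpc, a protein of the U1 spliceosomal particle, showed the same layout, with 17.2, 17.3 and 16.3 FPKM, then 12.5, 13.3 and 12.8, and 12.6 to 13.1 in wild type at 6 months. In wild type at 9 months Bex1 gave 24.5, 27.5 and 30.9 FPKM and Snrpc 12.8, 13.4 and 16.2, so 1 wild-type library came close to the 6-month APP/PS1 level of Snrpc. Fmn2, an actin nucleator of neurons, and Nol4 lay lower by 0.34 and 0.27 on the log2 scale. Rsph3b, a radial spoke gene of cilia, lay lower by 0.73, and its close copy Rsph3a gave 5.74, 5.38 and 5.42 FPKM and then 5.67, 5.31 and 5.58. The sum of both copies still separated the ages, at 11.2, 11.5 and 9.78 against 8.68, 8.46 and 8.59 FPKM.

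Of all lists, cholesterol synthesis had the largest share of members with an unadjusted p under 0.05 in one direction. Of 21 genes, all of them tested, 20 lay higher at 9 months, 14 of them at an unadjusted p under 0.05 (66.7% of the list, against 8.45% over all genes), and 0 lay lower at that p. In 13 the ages did not overlap, and the list's median was 0.21. In wild type 10 of the 21 lay higher and the median was -0.00. Brain cholesterol is made within the brain, mostly by glia, and its synthesis genes answer together to the factor Srebf2 when sterols are short.

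Fdft1, squalene synthase, which commits the pathway to sterols, gave 26.8, 26.2 and 25.7 FPKM at 6 months and 31.0, 29.4 and 30.7 at 9 months. The 3 libraries of each age were close together and the ages did not overlap, with a log2 difference of 0.21 (SE 0.04, adjusted p = 0.116 in limma). In wild type Fdft1 differed by -0.12, and the difference between the age steps, 0.33, had an unadjusted p of 9.56e-05 and an adjusted p of 0.186. Insig1, the sterol-sensing brake of the pathway and itself a target of Srebf2, gave 21.4, 25.3 and 23.4 FPKM and then 30.8, 30.5 and 32.3. Fdps, farnesyl diphosphate synthase, gave 29.2, 26.7 and 30.1 FPKM and then 34.3, 36.4 and 35.0. Insig1 and Fdps each lay higher in every 9-month library, by 0.42 and 0.30 on the log2 scale.

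Srebf2 itself did not separate the ages. It gave 60.7, 54.9 and 58.2 FPKM and then 59.5, 59.4 and 58.2. The difference between the age steps of the 2 genotypes was positive at an unadjusted p under 0.05 for 9 of the 21 genes (6.87% of all genes) and negative for 0 (4.41% of all genes), with a median of 0.21. None of the 9 passed adjustment over all genes. The count of 14 became 11 without the first APP/PS1 library at 6 months (52.4%, against 8.51% of all genes in that fit). It became 13 without the third at 9 months (61.9%, against 6.99%). With the level of pituitary markers in the model it became 8 (38.1%, against 4.94%). The median stayed between 0.18 and 0.24 under all 28 alternatives run.

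Hmgcs1, an early enzyme of the pathway, gave 82.1, 75.4 and 89.8 FPKM at 6 months and 94.1, 94.4 and 90.5 at 9 months. Its promoter is shown because it was the only one of the 14 cholesterol genes with a RefSeq window to hold the sterol element TCACCCCAC on either strand (7.14%, against 0.522% of 27025 windows). The window runs from 250 bases before to 50 after the start site, chr13:119690101-119690400 of GRCm38.p6, plus strand, with the element in capitals:
Hmgcs1: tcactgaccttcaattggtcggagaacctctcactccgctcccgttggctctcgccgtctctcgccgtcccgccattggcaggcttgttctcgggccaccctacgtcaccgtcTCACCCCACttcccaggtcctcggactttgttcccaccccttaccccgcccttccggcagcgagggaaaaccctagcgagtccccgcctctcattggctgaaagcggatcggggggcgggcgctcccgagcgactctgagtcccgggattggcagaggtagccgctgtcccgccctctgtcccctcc
Such a match describes letters and not a bound site.

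**Figure D2:**
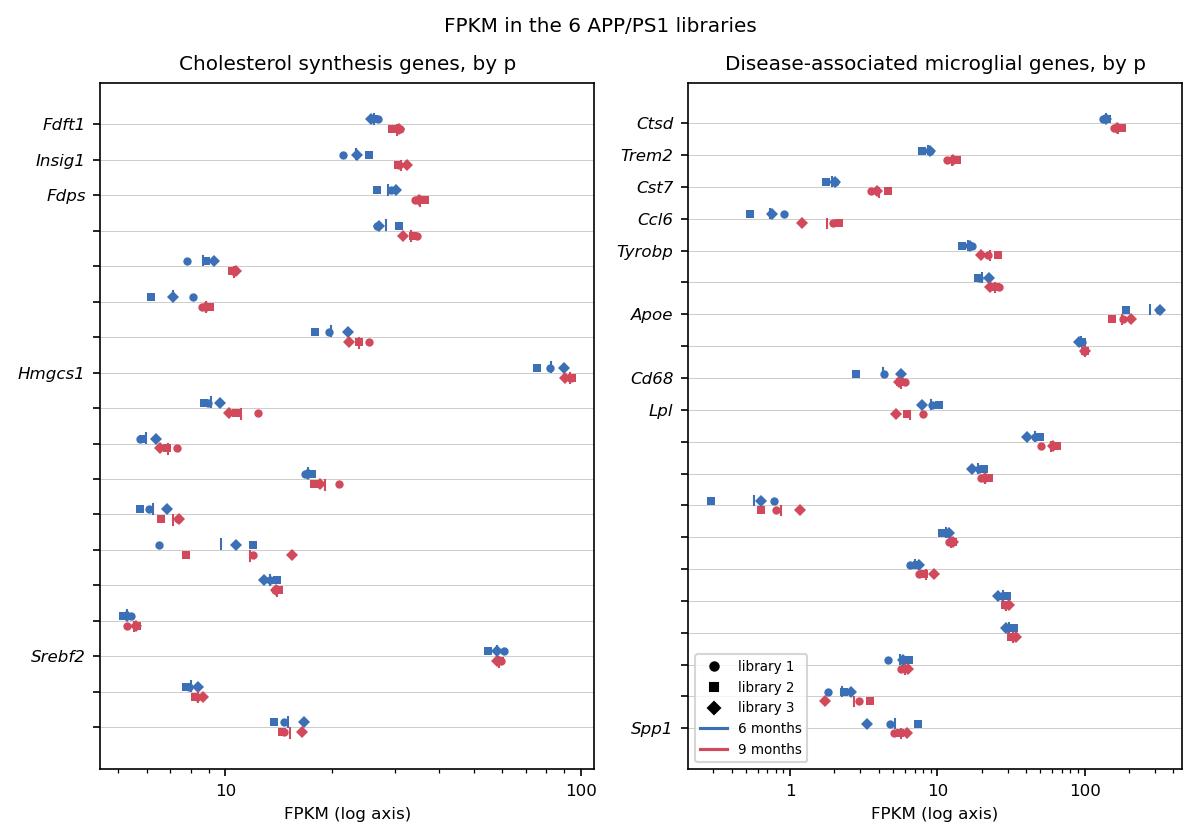
FPKM (log axis) in the 6 APP/PS1 libraries of 18 cholesterol synthesis genes and of the 20 tested disease-associated microglial genes, each ordered by p from the top and labelled where the text names the gene; symbols are libraries, short bars group means, blue 6 months and red 9 months. The upper rows of both panels show 9 months to the right of 6 months, and Srebf2, Apoe and Lpl do not follow.

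Genes of disease-associated microglia lay higher in the older APP/PS1 brains. Of 25 listed genes, 20 passed the filter on low values. Of these, 18 lay higher, 8 at an unadjusted p under 0.05 (40.0%), and 2 lay lower, both at that p. The median was 0.23, against -0.02 in wild type and 0.02 over all genes. Without the first APP/PS1 library at 6 months 8 lay higher and 0 lower at that p, against 8.51% and 4.47% of all genes in that fit.

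Ctsd, a lysosomal protease, gave 134, 142 and 140.1 FPKM at 6 months and 159, 179 and 167 at 9 months (log2 difference 0.28, SE 0.05, adjusted p = 0.116 in limma). Trem2, the lipid-sensing receptor of microglia, gave 8.92, 7.82 and 8.95 FPKM and then 11.6, 13.6 and 12.7. Its log2 difference was 0.55 (SE 0.12, adjusted p = 0.137 in limma), against -0.13 in wild type. The table lists 2 transcripts of Trem2. ENSMUST00000024791 gave 5.16, 4.13 and 4.54 FPKM at 6 months and 8.28, 8.47 and 8.69 at 9 months. ENSMUST00000113237 gave 3.76, 3.69 and 4.41 and then 3.28, 5.15 and 4.04, overlapping. The first transcript alone carried the separation of the ages, and when genes were read from their most abundant transcript, Trem2 was called with a log2 difference of 0.85 (adjusted p = 0.0402 in limma).

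Cst7, an inhibitor of lysosomal cysteine proteases and one of the most specific markers of the disease-associated state, gave 2.03, 1.75 and 2.01 FPKM at 6 months and 3.52, 4.65 and 3.90 at 9 months. Wild-type libraries lay between 0 and 0.237 FPKM at both ages. The 6-month APP/PS1 libraries were thus already above wild type, and the 9-month libraries were higher again, by 0.96 on the log2 scale (SE 0.21, adjusted p = 0.137 in limma). With a pseudocount of 1 Cst7 was called (adjusted p = 0.0424). The promoter window of Cst7, chr2:150570165-150570464 of GRCm38.p6, plus strand, is shown because it holds GGAAGTG, a form of the site of PU.1, the lineage factor of microglia:
Cst7: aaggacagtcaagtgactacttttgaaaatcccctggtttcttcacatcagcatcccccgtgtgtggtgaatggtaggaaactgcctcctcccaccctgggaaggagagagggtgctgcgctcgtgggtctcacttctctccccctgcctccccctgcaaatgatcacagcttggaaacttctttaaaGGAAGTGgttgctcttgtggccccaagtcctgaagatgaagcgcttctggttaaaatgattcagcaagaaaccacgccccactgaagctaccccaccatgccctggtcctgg
The capitals mark that match. Of the 20 listed genes with a window, 5 held GGAAGTG on either strand (Cst7, Itgax, Spp1, Cd68 and Ccl6), 25.0% against 11.2% of all windows. The same letters were in 5 of 18 windows of the protein folding genes (27.8%) and in 2 of 9 of the homeostatic microglia genes (22.2%), so the match was not particular to this list.

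The chemokine Ccl6 gave 0.903, 0.535 and 0.753 FPKM and then 1.96, 2.16 and 1.21. Tyrobp, the signalling adaptor of Trem2, gave 17.1, 14.7 and 16.5 FPKM and then 22.2, 25.8 and 19.8. Neither pair of groups overlapped. Itgax and Clec7a, surface receptors typical of plaque-associated microglia, were under the filter and were not tested. Itgax gave 0.363, 0.444 and 0.592 FPKM at 6 months, 0.799, 1.08 and 1.03 at 9 months and at most 0.201 in wild type. Clec7a gave 0.239, 0.548 and 0.455 FPKM and then 0.638, 0.978 and 0.450, overlapping. Lgals3, Ccl3 and Ccl4 were also under the filter, with no APP/PS1 library above 0.808 FPKM.

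Apoe and Lpl, lipid-handling genes of the same programme, lay lower in the sums per gene, with overlap between the ages. Apoe gave 319.8, 192 and 323 FPKM at 6 months and 183, 152 and 205 at 9 months. The gene's sum went with the transcript that held most of it. ENSMUST00000173739 gave 262 and 229 FPKM in libraries 1 and 3 at 6 months and at most 8.26 in the other 4. ENSMUST00000174064 gave 43.1 and 68.3 FPKM in those 2 libraries and 139.7 to 184 in the other 4. Read from the latter transcript alone, the log2 difference of Apoe was 1.02 in place of -0.60, so no direction is given for Apoe.

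Other lists of microglial, immune and lysosomal genes had smaller positive medians, and not all of them had counts above the share over all genes. Of 14 homeostatic markers, 11 lay higher with a median of 0.15, but 1 had an unadjusted p under 0.05 (7.14%, against 8.45% over all genes). The median became 0.08 without the second APP/PS1 library at 9 months. Of 13 tested complement and Fc receptor genes, 12 lay higher (median 0.14, wild type -0.12; 0.24 without the first APP/PS1 library at 9 months). C4b, complement component 4 made largely by glia, gave 6.96, 7.13 and 7.88 FPKM and then 12.6, 10.9 and 15.5. C1qa, a chain of the initiator C1q, gave 34.7, 30.6 and 32.9 FPKM and then 38.4, 45.9 and 37.9. The ages did not overlap for either gene. Of 20 lysosomal genes, 17 lay higher and 4 had an unadjusted p under 0.05 (20%, against 8.45% over all genes). That count became 1 without the first APP/PS1 library at 6 months (5%, against 8.51% of all genes in that fit). The protease Ctss was among the 4, with 35.1, 38.3 and 40.6 FPKM and then 42.2, 53.2 and 46.5. Of 15 tested interferon-response genes, 12 lay higher with a median of 0.07, equal to that in wild type, and 0 had an unadjusted p under 0.05. That median became -0.00 without the second APP/PS1 library at 9 months. Of 15 antigen presentation genes, 10 lay higher (median 0.13) and 7 had no overlap in that direction (10.8% over all genes), with the immunoproteasome subunit Psmb8 at 1.21, 1.11 and 1.21 FPKM and then 1.71, 1.77 and 1.57. Psmb8 differed by 0.44 in APP/PS1 and by 0.37 in wild type.

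Gfap gave 86.3, 92.1 and 109 FPKM at 6 months and 149, 112 and 132 at 9 months, a log2 difference of 0.45 (SE 0.14, adjusted p = 0.221 in limma). The highest 6-month and the lowest 9-month library were close, and wild type lay between 52.8 and 75.6 FPKM. Of 13 tested reactive astrocyte genes, 11 lay higher with a median of 0.16, and Gfap was the only one with an unadjusted p under 0.05. This median became 0.05 without the third APP/PS1 library at 9 months and 0.25 without the second. General astrocyte markers had a median of -0.00, with 6 of 14 higher. S100b, a calcium-binding protein of astrocytes, gave 46.3, 43.6 and 42.7 FPKM and then 51.6, 52.1 and 53.7.

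**Figure D3:**
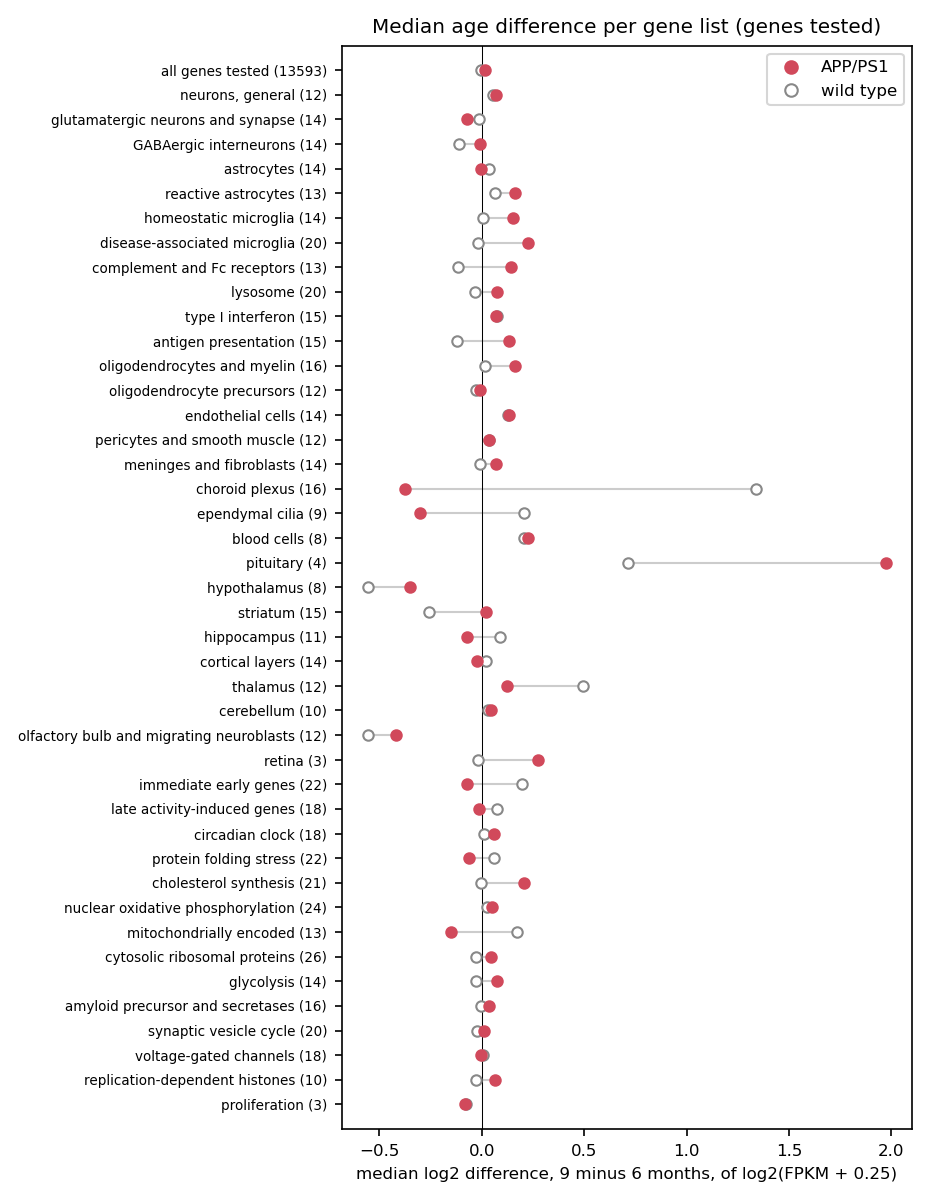
Median log2 difference, 9 minus 6 months, of the tested members of each of 42 gene lists and of all genes tested, in APP/PS1 (filled) and wild type (open); the number of tested genes is in brackets. Cholesterol synthesis (0.21) and disease-associated microglia (0.23) stand to the right in APP/PS1 and near 0 in wild type, and the widest points belong to markers of pituitary, choroid plexus and olfactory bulb.

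The circadian clock genes lay on both sides of 0. Clock output and repressor genes are driven by the factors Clock and Arntl (Bmal1) through E-boxes, and Nr1d2 and Nfil3 feed back on the cycle. Of 18 genes, 6 lay higher (33.3%) and 3 lower (16.7%) at an unadjusted p under 0.05, with a median of 0.06 that became 0.01 without the third APP/PS1 library at 9 months and 0.11 without the third at 6 months. Dbp, an output factor, gave 32.0, 29.7 and 37.4 FPKM at 6 months and 46.2, 42.6 and 45.6 at 9 months, against 39.6 to 47.1 in wild type. The 6-month APP/PS1 libraries were the low ones. The log2 difference was 0.44 (SE 0.08, adjusted p = 0.116 in limma). Tef, an output factor of the same family, gave 75.7, 75.0 and 76.4 FPKM and then 85.2, 85.3 and 88.6, with wild type between 82.4 and 89.0. Nr1d2, Bhlhe41, Per3 and Ciart, all repressors of the loop, lay higher by 0.23, 0.37, 0.21 and 0.35 on the log2 scale.

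In the other direction lay Nfil3, Npas2 and Arntl. Nfil3, which represses the targets of Dbp, gave 5.22, 4.57 and 3.92 FPKM and then 3.13, 3.48 and 3.57. Arntl gave 9.87, 10.6 and 9.63 FPKM and then 8.39, 9.48 and 7.85. The core genes Per1, Per2, Cry1, Cry2 and Clock had no unadjusted p under 0.05. In wild type 1 of the 18 genes had such a p. Clock genes vary with the hour in nearly every tissue. No hour of collection is given in the sources used here, so hour and age cannot be told apart. The count of 6 became 4 without the third APP/PS1 library at 9 months (22.2%, against 6.99% of all genes in that fit). With the pituitary markers in the model it became 3 (16.7%, against 4.94%).

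The promoters of Tef and Bhlhe41 are shown because both genes lay higher and hold the E-box CACGTG, which is in 5 of the 15 clock windows (33.3%; Per1, Cry1, Tef, Bhlhe41 and Ciart) and in 7.24% of all windows. CACGTG reads the same on both strands, and it is in capitals. The windows are chr15:81802423-81802722, plus strand, and chr6:145865371-145865670, minus strand, of GRCm38.p6:
Tef: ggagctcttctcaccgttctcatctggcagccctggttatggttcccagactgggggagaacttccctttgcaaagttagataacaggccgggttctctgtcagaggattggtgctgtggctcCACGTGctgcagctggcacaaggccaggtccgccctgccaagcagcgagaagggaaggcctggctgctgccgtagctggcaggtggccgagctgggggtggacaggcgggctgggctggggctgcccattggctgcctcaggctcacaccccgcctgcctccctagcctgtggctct
Bhlhe41: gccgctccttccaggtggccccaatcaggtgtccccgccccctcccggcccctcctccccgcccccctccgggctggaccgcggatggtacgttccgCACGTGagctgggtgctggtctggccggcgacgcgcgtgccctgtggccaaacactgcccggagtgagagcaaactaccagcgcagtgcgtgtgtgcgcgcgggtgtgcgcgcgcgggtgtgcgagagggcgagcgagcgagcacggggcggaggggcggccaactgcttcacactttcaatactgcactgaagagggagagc
Per1 and Cry1 hold the same letters and had no such p, so the match did not separate the clock genes that lay higher.

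Of 22 chaperones and genes of the unfolded protein response, 17 lay lower, 6 at an unadjusted p under 0.05 (27.3%, against 4.68% over all genes), and 0 lay higher at that p. The median was -0.06, against 0.06 in wild type. It ranged from -0.11 to 0.02 with 1 library left out, being 0.02 without the second APP/PS1 library at 6 months. Without the third APP/PS1 library at 9 months it was -0.03. In that fit 4 genes lay lower (18.2%, against 4.09% of all genes) and 1 higher (4.55%, against 6.99%) at that p. Dnajb5, a co-chaperone of the Hsp70 family, gave 34.6, 32.0 and 29.6 FPKM and then 26.3, 26.5 and 25.0 (log2 difference -0.30, SE 0.06, adjusted p = 0.116 in limma). Atf4, the transcription factor of the integrated stress response, gave 46.8, 47.7 and 43.3 FPKM and then 34.7, 37.6 and 36.6. In wild type Atf4 gave 32.3, 33.8 and 36.1 FPKM at 6 months and 38.0, 36.8 and 49.8 at 9 months. APP/PS1 lay above wild type at 6 months, and the genotypes overlapped at 9 months. Hspd1, the mitochondrial chaperonin, gave 65.9, 77.9 and 69.9 FPKM and then 64.2, 60 and 62.4. Calr, a calcium-binding chaperone of the endoplasmic reticulum, gave 144, 161 and 142 FPKM and then 127, 131 and 116. Hsp90b1 and Hsph1 lay lower by 0.20 and 0.23.

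Immediate early genes are those that neurons transcribe within minutes of activity. In APP/PS1 16 of 22 lay lower at 9 months, and Egr1 was the only one with an unadjusted p under 0.05 (4.55%, near the 4.68% over all genes). The median of -0.07 became -0.02 without the first APP/PS1 library at 6 months and 0.02 with the pituitary markers in the model. Egr1 gave 51.9, 50.3 and 47.9 FPKM at 6 months and 37.8, 41.6 and 35.2 at 9 months, without overlap. In wild type it gave 41.8, 39.7 and 50.9 FPKM and then 55.5, 57.1 and 60.6, again without overlap and in the other direction. The difference between the age steps was -0.78 (unadjusted p 5.65e-05, adjusted p = 0.186 in limma). Over the list the wild-type median was 0.19, and 9 of the 22 genes had a negative difference between the age steps at an unadjusted p under 0.05 (4.41% over all genes). Among genes induced later by activity, Bdnf, a neurotrophin, gave 9.94, 10.2 and 8.93 FPKM and then 7.91, 7.91 and 6.59. Rgs4, a brake on G protein signalling, gave 99.5, 104 and 97.1 FPKM and then 87.0, 92.9 and 89.4. Both were without overlap. The late list as a whole had a median of -0.02.

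**Figure D4:**
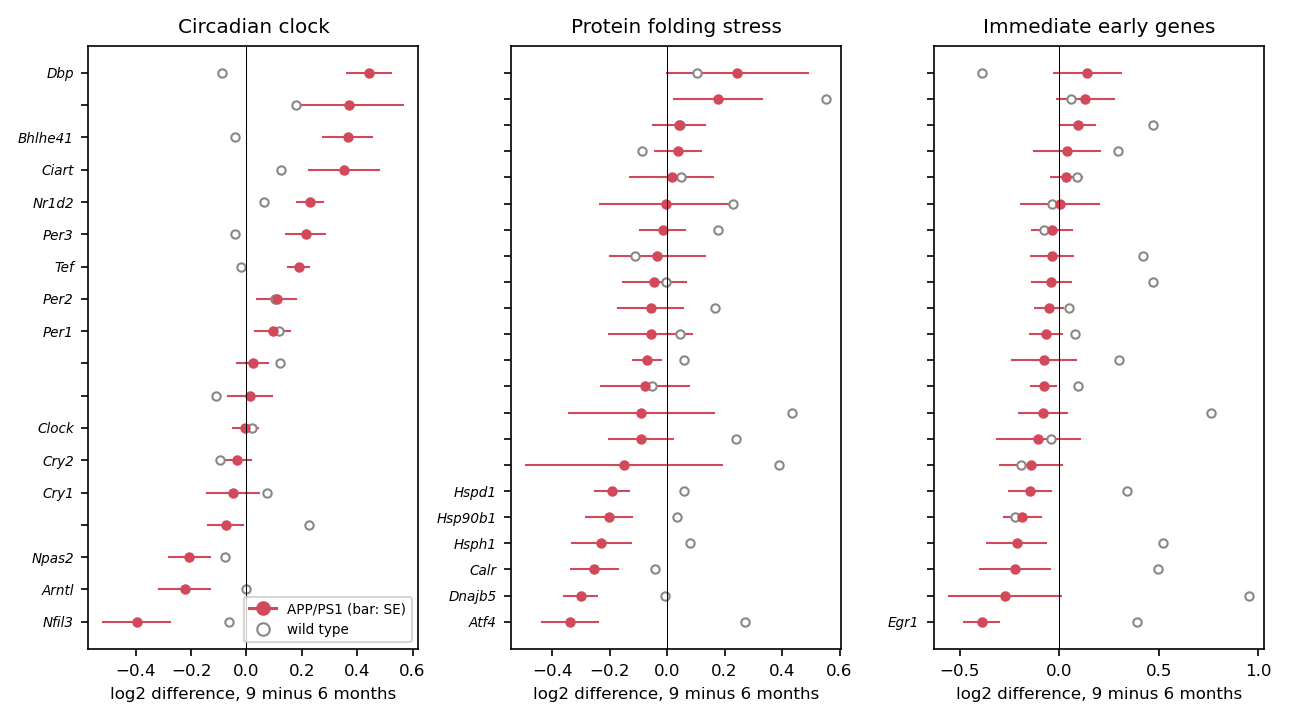
Log2 difference, 9 minus 6 months, of log2(FPKM + 0.25) for clock, protein folding stress and immediate early genes, in APP/PS1 (filled, bars are the SE) and wild type (open), labelled where the text names the gene. Dbp is at 0.44 and Nfil3 at -0.40 in APP/PS1, Atf4 at -0.34, and Egr1 at -0.39 in APP/PS1 against 0.39 in wild type.

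Neuronal genes differed little as groups. Of 14 glutamatergic genes, 9 lay lower with a median of -0.07, and 2 of them had an unadjusted p under 0.05. Grin2b, an NMDA receptor subunit, gave 70.4, 68.2 and 73.4 FPKM and then 58.3, 58.5 and 58.5 (log2 difference -0.27, SE 0.06, adjusted p = 0.125 in limma). The AMPA receptor subunit Gria2 gave 73.2, 78.0 and 74.4 FPKM and then 68.0, 71.3 and 67. GABAergic interneuron markers had a median of -0.01, with 7 higher and 7 lower. Beside Pvalb, the neuropeptide Vip lay higher, at 13.7, 13.9 and 12 FPKM and then 15.5, 16.4 and 16.8. Among 18 voltage-gated channel genes 3 lay higher and 2 lower at an unadjusted p under 0.05. The synaptic vesicle list had a median of 0.01 and 1 gene in each direction.

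Of 16 oligodendrocyte and myelin genes, 14 lay higher with a median of 0.16, 7 without overlap (10.8% over all genes) and 3 at an unadjusted p under 0.05. Cnp, a protein of uncompacted myelin, gave 80.8, 84.3 and 92.5 FPKM and then 97.5, 102 and 106. Cldn11, the tight junction protein of myelin, gave 51.4, 58.6 and 55.0 FPKM and then 62.5, 60.2 and 67.2. This median became 0.08 without the first APP/PS1 library at 6 months and -0.01 with the pituitary markers in the model. Of 24 nuclear genes of oxidative phosphorylation, 19 lay higher with a median of 0.05, 5 at an unadjusted p under 0.05. Cox7c, a subunit of cytochrome oxidase, gave 148, 145 and 119 FPKM and then 167, 159 and 158. The 13 mitochondrially encoded genes lay in the other direction, with 10 lower and a median of -0.15, which became 0.02 without the third APP/PS1 library at 6 months.

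Of 14 endothelial genes, 9 lay higher, with a median of 0.13 in both genotypes. Of these, 4 had an unadjusted p under 0.05 (28.6%, against 8.45% over all genes). That count became 2 without the third APP/PS1 library at 9 months (14.3%, against 6.99%). With the pituitary markers in the model it became 1 (7.14%, against 4.94%). Ly6c1, a surface marker of brain endothelium, gave 21.8, 17.8 and 19.0 FPKM and then 24.0, 26.3 and 22.1. The list of amyloid precursor processing genes had a median of 0.04, with 1 of 16 genes higher at that p.

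Marker lists of pituitary, hypothalamus, choroid plexus and olfactory bulb varied between libraries more than the gene lists above. Cerebellar markers did not, with sums of 234 to 241 FPKM at 6 months and 251 to 254 at 9 months in APP/PS1. Of 8 tested hypothalamus markers 7 lay lower, with a median of -0.35. That median ranged from -0.83 to 0.19 with 1 library left out, so no direction is given for this list. The 4 tested pituitary markers lay higher at 9 months with a median of 1.97, and Pomc, the hormone precursor of pituitary corticotrophs and of a few hypothalamic neurons, gave 0.779, 1.40 and 0.882 FPKM at 6 months and 13.8, 3.93 and 228 at 9 months. The third library at 9 months stood far above the others. All 7 pituitary markers in the table summed to 1.75 to 14.5 FPKM at 6 months and to 20.1 to 242 at 9 months, and 3 of them were under 0.5 FPKM in all 6 libraries. In wild type the 4 tested pituitary markers also lay higher at 9 months, with a median of 0.71. The 12 tested olfactory bulb and neuroblast markers all lay lower, with a median of -0.42, against -0.56 in wild type. All 13 of them summed to 177, 110.0 and 86.1 FPKM at 6 months and 97.8, 93.7 and 88.2 at 9 months. The first library at 6 months thus carried most of the gap in the sum. Without that library the median was -0.22. The 16 choroid plexus markers summed to 112, 349 and 322 FPKM at 6 months and 131, 90.8 and 318 at 9 months, overlapping. In wild type they summed to 14.3, 312 and 22.4 FPKM and then to 328, 363 and 374, and all 16 lay higher at 9 months (median 1.34). Of these, 10 had an unadjusted p under 0.05, against 669 of all 13593 genes higher at that p in wild type. Of 9 tested ependymal genes 8 lay lower (median -0.30), with the ciliary factor Foxj1 at 2.12, 2.22 and 2.64 FPKM and then 1.64, 1.56 and 1.96. Of 16 retinal markers, 13 were under 0.5 FPKM in all APP/PS1 libraries and the sum was at most 5.42 FPKM, while neuronal, astrocytic and myelin markers were abundant, as the tissue label brain says. The part of these markers in the differences of other genes was tested only as far as the models with the choroid plexus, striatum and hippocampus, olfactory bulb and pituitary levels go.

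**Figure D5:**
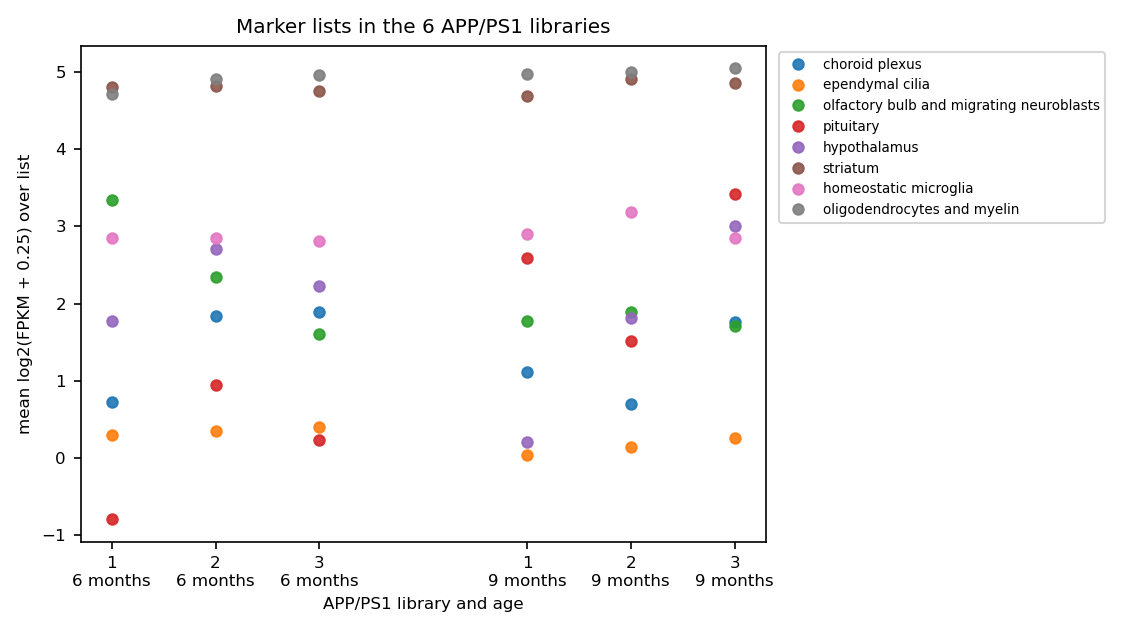
Mean log2(FPKM + 0.25) over the tested members of 8 marker lists in each of the 6 APP/PS1 libraries. Olfactory bulb markers are highest in the first library at 6 months (3.34), pituitary markers lie between -0.80 and 0.94 at 6 months and between 1.51 and 3.42 at 9 months, and microglial, striatal and myelin markers vary less.

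The comparison with wild type asked which age differences belonged to the transgenic mice. Across 13593 genes the age differences of the 2 genotypes correlated with Pearson's r = 0.18 and Spearman's rho = 0.05, a description across genes that are not independent replicates. At an unadjusted p under 0.05 the age step was more positive in APP/PS1 for 934 genes (6.87%) and more negative for 599 (4.41%). After adjustment 1 gene passed (0.00736%), Hdac1, a class I histone deacetylase. It gave 3.75, 3.50 and 3.07 FPKM in APP/PS1 at 6 months and 5.38, 5.21 and 5.64 at 9 months, and 7.27, 5.29 and 5.30 and then 3.04, 3.01 and 3.09 in wild type. The difference between the age steps was 1.52 (adjusted p = 0.0174 in limma). This call was lost under 6 of 27 alternatives, with adjusted p-values up to 0.651 in limma and differences of 1.26 to 1.53. Gm10093, whose sequence reads may share with Hdac1, lay in the opposite order, at 3.28, 3.28 and 2.95 FPKM in APP/PS1 at 6 months and 1.99, 2.25 and 2.08 at 9 months. The sum of both was 7.04, 6.78 and 6.01 FPKM and then 7.37, 7.46 and 7.73 in APP/PS1, and 7.91, 7.31 and 7.19 and then 5.97, 6.29 and 6.69 in wild type. The sum kept the order of the ages in each genotype with a smaller gap, so the size of the Hdac1 difference is uncertain. Adora2a, an adenosine receptor of striatal neurons, had a difference of 0.66 between the age steps (unadjusted p 7.87e-05, adjusted p = 0.186 in limma). It gave 12.6, 11.1 and 11.6 FPKM and then 13.4, 14.4 and 14 in APP/PS1, and 18.1, 14.6 and 15.4 and then 12.3, 11.7 and 11.5 in wild type. Of 15 striatal markers, 10 lay lower in wild type at an unadjusted p under 0.05 (5.33% over all genes) and 0 did in APP/PS1, and 9 had a positive difference between the age steps at that p.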

How the data were processed

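The authors deposited FPKM per transcript for 12 long RNA libraries. Bowtie 0.12.2 and mm8 are named, without a role, per the submitters' processing notes. For the quantifier and the annotation, no name is given in the sources used here. Per the labels' protocols, total RNA went into a TruSeq RNA kit; a strand setting is not given, so overlapping and near-identical genes are uncertain. That protocol speaks of retinas, whereas every tissue label is brain. FPKM were summed per gene ID (48717 transcripts, 22154 genes; 98.1% of IDs matched a table of mouse gene names), and genes averaging 0.5 FPKM or more were kept. The log2(FPKM + 0.25) values were fitted with limma 3.58.1 in R 4.3.3, in 1 model of the 4 groups (lmFit, eBayes with a trend), with Benjamini-Hochberg adjustment over 13593 genes, and the model was tested on simulated data. Absolute depth is unknown. Relative depth came from whole-read steps of genes below 0.3 FPKM.

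The comparison, the 42 lists (641 symbols) and the gene rule were chosen with earlier results of these data known. The rule names the 8 genes of smallest p in each direction with a mean of at least 1 FPKM, and at most 4 genes of smallest p per list. It also names at most 8 for the difference between genotypes, and App, Prnp, Gfap, Cst7 and Trem2. Other names were chosen after their values were seen. Some genes of the rule are not reported here. Promoter windows are from RefSeq, GRCm38.p6, the first listed per gene, read on both strands. The alternatives were other pseudocounts, filters, scalings and variance settings, the most abundant transcript, APP/PS1 libraries alone, the replicate block, marker levels as covariates and each library left out. The models with olfactory bulb and pituitary levels were chosen after seeing the data.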

Additional observations from a re-analysis of the deposited data

Results flagged for a closer look

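Hdac1 met the test of a difference between the genotypes. Its age step, 9 minus 6 months, was larger in APP/PS1 than in wild type by 1.52 on the log2 scale (adjusted p = 0.0174 in limma), being 0.62 in APP/PS1 and -0.90 in wild type. The call was lost under 6 of 27 alternatives, with adjusted p-values up to 0.651 in limma and differences of 1.26 to 1.53. All 3 APP/PS1 libraries at 9 months lay above all 3 at 6 months, and in wild type all 3 lay below. Gm10093, a gene that may share its reads, lay in the opposite order of the ages in both genotypes.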

How the results depend on the processing

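The count of genes called between 6 and 9 months in APP/PS1, 0 as reported, was 3 with a pseudocount of 1 (Pvalb, Cst7 and Cthrc1), 6 with the most abundant transcript per gene (Stau1, Phc1, Kcnk13, Mroh1, Pvalb and Trem2) and 3 with the 6 APP/PS1 libraries alone (Cdkn2a, Gm10419 and Hist4h4). With 1 library left out it ranged from 0 to 5: 5 without the third APP/PS1 library at 6 months (among them Cthrc1, Rsph3b and Dbp), 5 without the first at 9 months (among them Sirt1), 3 without the third wild-type library at 9 months (Snrpc and Pvalb among them), and 1 without the second APP/PS1 library at 6 months (Pvalb), without wild-type library 1 (Cd37) or 3 (Hist4h4) at 6 months, or without the second at 9 months (Cdkn2a). The other alternatives also gave 0. Cdkn2a passed the filter on low values only through the libraries where it was high, so its calls are not read as results. The 6 calls in wild type became 1 without a filter, with the most abundant transcript and with the pituitary level, 2 with the olfactory bulb level, 0 with the choroid plexus or the striatum and hippocampus levels, and 0 to 13 with 1 library left out. The 1 call for the difference between genotypes became 0 with the most abundant transcript, the choroid plexus level or the striatum and hippocampus levels, 2 with the olfactory bulb level (Hdac1 and Cthrc1), and 0 to 4 with 1 library left out. Hdac1 lost its call with the most abundant transcript (adjusted p = 0.0582 in limma), with the choroid plexus level (0.156), with the striatum and hippocampus levels (0.651), and without the second APP/PS1 library at 6 months (0.0859), the first wild-type library at 9 months (0.0919) or the third APP/PS1 library at 9 months (0.101), with the difference at 1.26 to 1.53 in these 6. The cause was not tested.

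The direction turned for Apoe with the most abundant transcript (log2 1.02) and for Srebf2 with 1 library left out (-0.01 to 0.062, negative without the second APP/PS1 library at 6 months). With the pituitary level in the model, 1111 genes had an unadjusted p under 0.05 in place of 1784, and the median of the antigen presentation list was -0.04 in place of 0.13. No scaling moved the median of all genes by over 0.1.

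The labels do not say whether library numbers pair the samples, and the values do not settle it. Same-numbered APP/PS1 libraries of the 2 ages correlated at 0.077, -0.005 and 0.06 in their deviations from the group means. Libraries 1 and 3 correlated best with their own number, and library 2 did not. With the replicate block, 0 genes were called in APP/PS1 (1805 at an unadjusted p under 0.05), 0 in wild type and 1 for the difference between genotypes.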

Other observations

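Cdkn2a, which encodes cell cycle inhibitors that accumulate in senescent cells, was near 0 at 6 months and not at 9 months. It gave 0.191, 0.0861 and 0.0540 FPKM in APP/PS1 at 6 months and 6.85, 4.15 and 4.28 at 9 months. In wild type it gave at most 0.121 FPKM in 5 of 6 libraries and 5.16 in the second at 9 months. The value was carried by 1 transcript at a time: by ENSMUST00000107131 in the first and second APP/PS1 libraries at 9 months (6.85 and 4.15 FPKM), and by ENSMUST00000060501 in the third (4.17 FPKM), where the former gave 0.110. It passed the filter on low values only through the libraries where it was high. Its calls under the alternatives above are therefore not read as results.

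A list of 19 genes known to respond to glucocorticoids was chosen after values were seen and gets no test. Their mean log2 level in APP/PS1 was 4.22, 4.31 and 4.22 at 6 months and 4.38, 4.33 and 4.73 at 9 months, so most of the gap lay in the third library at 9 months. In wild type it was 4.51, 4.63 and 4.36 at 6 months and 4.51, 4.40 and 4.34 at 9 months. The 6-month APP/PS1 libraries and the second at 9 months thus lay below every wild-type library. Tsc22d3, a glucocorticoid-induced leucine zipper gene, gave 33.3, 37.2 and 30.1 FPKM and then 46.4, 50.1 and 54.5, against 42.0 to 56.4 in wild type. Sgk1, a kinase of the same response, gave 43.5, 50.4 and 45.5 FPKM and then 53.0, 56.4 and 72.5. The third library at 9 months had the highest of the 6 APP/PS1 values for 18 of the 19 genes. It also had the highest mean log2 level over all genes tested, 3.185 against 3.134 to 3.162 in the other APP/PS1 libraries. The share of all genes that were highest in this library was not counted. The same library had the highest Pomc of all (228 FPKM), and a link between Pomc and these genes was not tested. With the pituitary level in the model the log2 difference of Tsc22d3 was 0.57 in place of 0.58, and that of Sgk1 was 0.44 in place of 0.37. The adjusted p in limma became 0.519 in place of 0.116 for Tsc22d3 and 0.630 in place of 0.293 for Sgk1. Pituitary level and age went together in the APP/PS1 libraries, so this model cannot tell them apart.

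Pglyrp1, a secreted antibacterial protein, lay higher at 9 months in both genotypes. It gave 3.21, 4.63 and 3.46 FPKM and then 6.81, 5.78 and 6.81 in APP/PS1, and 2.77, 3.15 and 3.53 and then 8.76, 8.02 and 7.34 in wild type. The log2 differences were 0.75 and 1.29, and the latter was among the 6 wild-type calls. Sirt1, a deacetylase, gave 5.10, 5.32 and 4.63 FPKM in APP/PS1 at 6 months and 4.43, 1.98 and 2.19 at 9 months, so the first library at 9 months lay apart from the other two.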
